A study of Homo sapiens with 14 samples.

Results

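The genes described here encode the factors that start and extend protein synthesis on cytosolic ribosomes. They were chosen by name alone, as every entry whose symbol begins with EIF1 to EIF6 or with EEF1 or EEF2. The choice gave 64 of 17810 entries in the count table of the OmoMYC experiment and 65 of 19143 in the table of the parental cells, with 63 identifiers in both. Prefixes do not respect function, so the list also takes in a kinase of eEF2, the kinases of eIF2, inhibitors of eIF4E, and eIF4A3 of the exon junction complex.

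CHP-134 cells are an established line from human neuroblastoma with amplified MYCN, the gene of N-MYC. In the first experiment, cells carried a doxycycline-inducible lentiviral construct for either EGFP or OmoMYC, a MYC mutant that inhibits MYC proteins as a dimerization partner, and both lines received 1 µg/ml doxycycline for 3 days (3 libraries each). In the second, parental cells that carry no tagged protein were treated for 18 h with 500 nM dTAG47, a degrader of tagged proteins, or with DMSO (4 libraries each). Since each construct was put into cells separately and selected with G418, a difference between these lines and an effect of OmoMYC cannot be told apart.

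In translation initiation, eIF2 carries the initiator tRNA to the small ribosomal subunit, eIF3 and eIF4F bring that subunit to a capped mRNA, and eIF1, eIF1A and eIF5 monitor the choice of the start codon before eIF5B joins the large subunit. During elongation, eEF1A delivers aminoacyl-tRNA and eEF2 moves the ribosome along by a codon. Genes of this machinery are classical targets of MYC proteins, and EIF4E is the textbook example.

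Libraries held 28060817 to 53451641 counts, of which these genes took 2.34% to 2.43% in the OmoMYC experiment and 1.93% to 2.02% in parental cells. As a check of the labels, the MYC gene, which the OmoMYC construct resembles in sequence, gave 0.568 to 0.689 CPM with EGFP and 513 to 527 CPM with OmoMYC (CPM being counts relative to each library's total after edgeR's TMM scaling), while MYCN was at 2408 to 2900 and 2182 to 2312 CPM. The cells had 9 or 10 of 11 adrenergic neuroblastoma markers above 1 CPM, summing to 3934 to 4752 CPM, against 73.1 to 82.4 CPM for 5 mesenchymal markers and at most 7.92 CPM for 3 glial markers in the engineered cells. The adrenergic sum includes the amplified gene MYCN, which alone gave 2182 to 2900 CPM in the engineered cells. In parental cells the mesenchymal markers summed to 31.5 to 36.1 CPM and the glial markers to at most 12.1 CPM. The summed epithelial markers reached at most 5.12 CPM and the summed immune markers at most 1.20 CPM in any library. TH was the adrenergic marker that stayed below 1 CPM in each group, and DBH was below 1 CPM in all groups but OmoMYC. As the libraries are bulk samples, fewer cells with a transcript and less of it per cell cannot be told apart. Between replicates, the chi-square of counts per degree of freedom was 8.15 to 43.5 for EGFP and 2.86 to 9.02 for OmoMYC, where read sampling alone gives a value near 1. EGFP replicates 1 and 3 were the farthest apart.

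A property of the transcripts moved with these libraries. The median log2 level of genes in the highest quartile of GC content, minus that in the lowest, was -0.35, 0.05 and 0.30 in EGFP replicates 1, 2 and 3 and 0.56, 0.48 and 0.74 in the OmoMYC replicates, relative to the EGFP mean. The median GC content was 40.4% for the translation factors called lower with OmoMYC, 53.1% for those called higher and 50.4% for those not called, against 48.8% over all tested genes. The results for OmoMYC are therefore also given, for every factor called and most others, after a trend on GC content, transcript length and gene span was removed from every library, here called the feature correction. A library effect and an OmoMYC effect on GC-rich transcripts cannot be told apart.

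**Figure D1:**
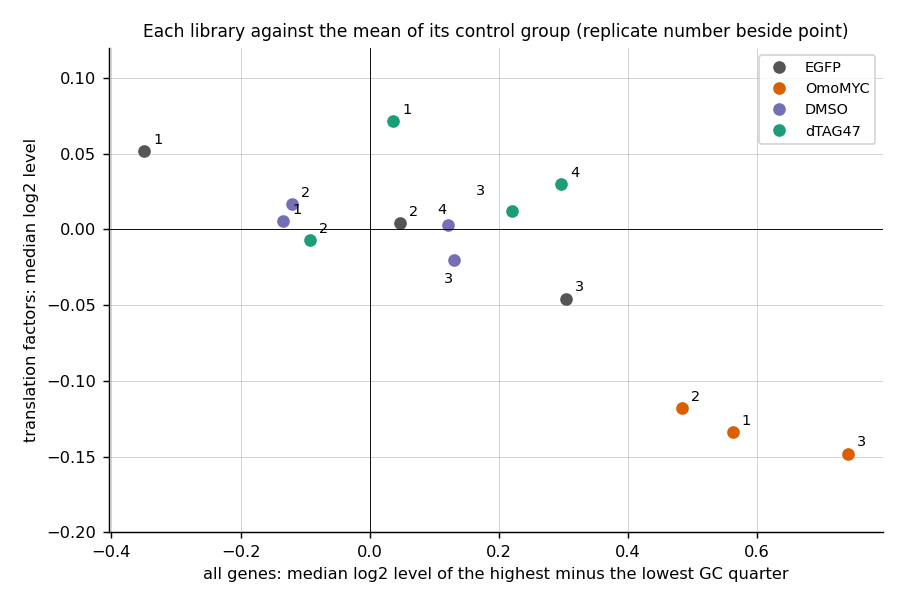
For each of the 14 libraries, the horizontal axis gives the median log2 level of all genes in the highest GC quartile minus that in the lowest, and the vertical axis the median log2 level of the translation factors, both relative to the mean of the library's own control group (EGFP or DMSO). The OmoMYC libraries lie apart at 0.48 to 0.74 on the horizontal axis and -0.12 to -0.15 on the vertical, and the EGFP libraries spread from -0.35 to 0.30 and from 0.05 to -0.05.

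MYC proteins with their partner MAX bind the E-box CACGTG, which is its own reverse complement, so that a search covers both strands. Promoters were taken from RefSeq (GRCh38.p14, 250 bases before to 50 after the annotated start) and found for 54 of 65 symbols. The E-box stood in 13 of the 54, or 24.1%, against 7.26% of all 35116 promoters and 10.1% of the 10245 promoters of genes tested in the OmoMYC experiment. Among the translation factors it stood in 5 of 20 called lower with OmoMYC, 0 of 4 called higher and 7 of 25 not called. Over all tested genes, the shares were 9.42% of those lower, 9.56% of those higher and 10.7% of those not called. The stretches around the E-box, in capitals, are given for the 5 factors that were called lower and for EIF4G1, the scaffold of eIF4F that was not called, with the distance from the motif to the annotated start. They read 5′ to 3′ on the gene's strand.
EIF4E, chr4:98929326-98929383, minus strand, 225 bases before the start: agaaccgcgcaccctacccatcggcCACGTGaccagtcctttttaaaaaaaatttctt
EIF4E, chr4:98929173-98929232, minus strand, 72 bases before: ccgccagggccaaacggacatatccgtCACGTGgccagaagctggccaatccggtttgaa
EEF2K, chr16:22206192-22206251, plus strand, 59 bases before: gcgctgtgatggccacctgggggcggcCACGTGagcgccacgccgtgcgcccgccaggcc
EIF1B, chr3:40309626-40309685, plus strand, 54 bases before: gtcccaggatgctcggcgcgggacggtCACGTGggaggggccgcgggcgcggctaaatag
EIF2B3, chr1:44986742-44986801, minus strand, 179 bases before: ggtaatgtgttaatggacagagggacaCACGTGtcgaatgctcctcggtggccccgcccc
EIF4A3, chr17:80147217-80147276, minus strand, 121 bases before: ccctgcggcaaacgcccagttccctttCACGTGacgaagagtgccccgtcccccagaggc
EIF4G1, chr3:184314435-184314494, plus strand, 144 bases before: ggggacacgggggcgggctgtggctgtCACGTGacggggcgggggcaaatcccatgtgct
EIF4G1, chr3:184314512-184314571, plus strand, 67 bases before: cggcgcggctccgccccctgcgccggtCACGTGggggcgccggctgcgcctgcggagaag
EIF4E, EIF4G1 and EIF5A2, which is not shown, each hold a pair of E-boxes. The EIF4E transcript fell with OmoMYC, and those of EIF4G1 and EIF5A2 were not called. The motif is a description of these windows, and binding was not measured here.

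With OmoMYC, 24 of the 60 translation factors tested fell and 6 rose at a false discovery rate (FDR) below 0.05 in edgeR's quasi-likelihood test, and 30 were not called. Over all 13803 genes tested, 25.7% were called lower and 27.3% higher, so that 30 of 60 factors were called in either direction against 53% of all genes, with more calls downwards and fewer upwards than in the background. The changes were small. The median log2 fold change of the 60 was -0.13, with a range from -0.80 to 0.68, against 0.01 over all genes, and 38 of 60 were below 0. A called change past 1.5-fold was found for 5 factors downwards and 1 upwards, against 7.62% and 13.4% of all genes. The 3 OmoMYC libraries lay wholly below the 3 EGFP libraries for 30 factors and wholly above for 10, against 30.3% and 32% of all genes. By library, the median of the factors relative to the EGFP mean was 0.05, 0.00 and -0.05 in EGFP replicates 1 to 3, and -0.13, -0.12 and -0.15 in OmoMYC replicates 1 to 3. The entries that were too low to test were EEF1G, EIF2S3L, EIF4E1B and 1 of 2 entries named EIF2D.

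Leaving out a library moved these counts. Without EGFP replicate 2, 19 factors were lower and 2 higher, against 22% and 20.7% of all genes. Without OmoMYC replicate 3 there were 19 and 4 (21.7% and 19.4% of all genes), and without EGFP replicate 3 there were 32 and 9 (29.9% and 29%). Without OmoMYC replicate 2 the rises numbered 3, against 21.4% of all genes. The call held without each library in turn for 18 of the 24 falls and 2 of the 6 rises. After the feature correction, 15 of the 24 falls and 3 of the 6 rises were still called in their direction, 20 factors in all were lower and 10 higher against 27.1% and 32% of all genes, and the median was -0.02. Under all the alternatives of the OmoMYC experiment, 13 falls and 1 rise kept their call. These were EEF1E1, EEF2K, EIF1AX, EIF2B3, EIF2S1, EIF2S2, EIF3B, EIF3E, EIF3M, EIF4A1, EIF4E3, EIF5 and EIF5B downwards, and EEF1A2 upwards. How often the called genes of the whole table kept their calls in these ways is not given here. Whether the factors' calls held more or less often than those of other genes was thus not tested.

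**Figure D2:**
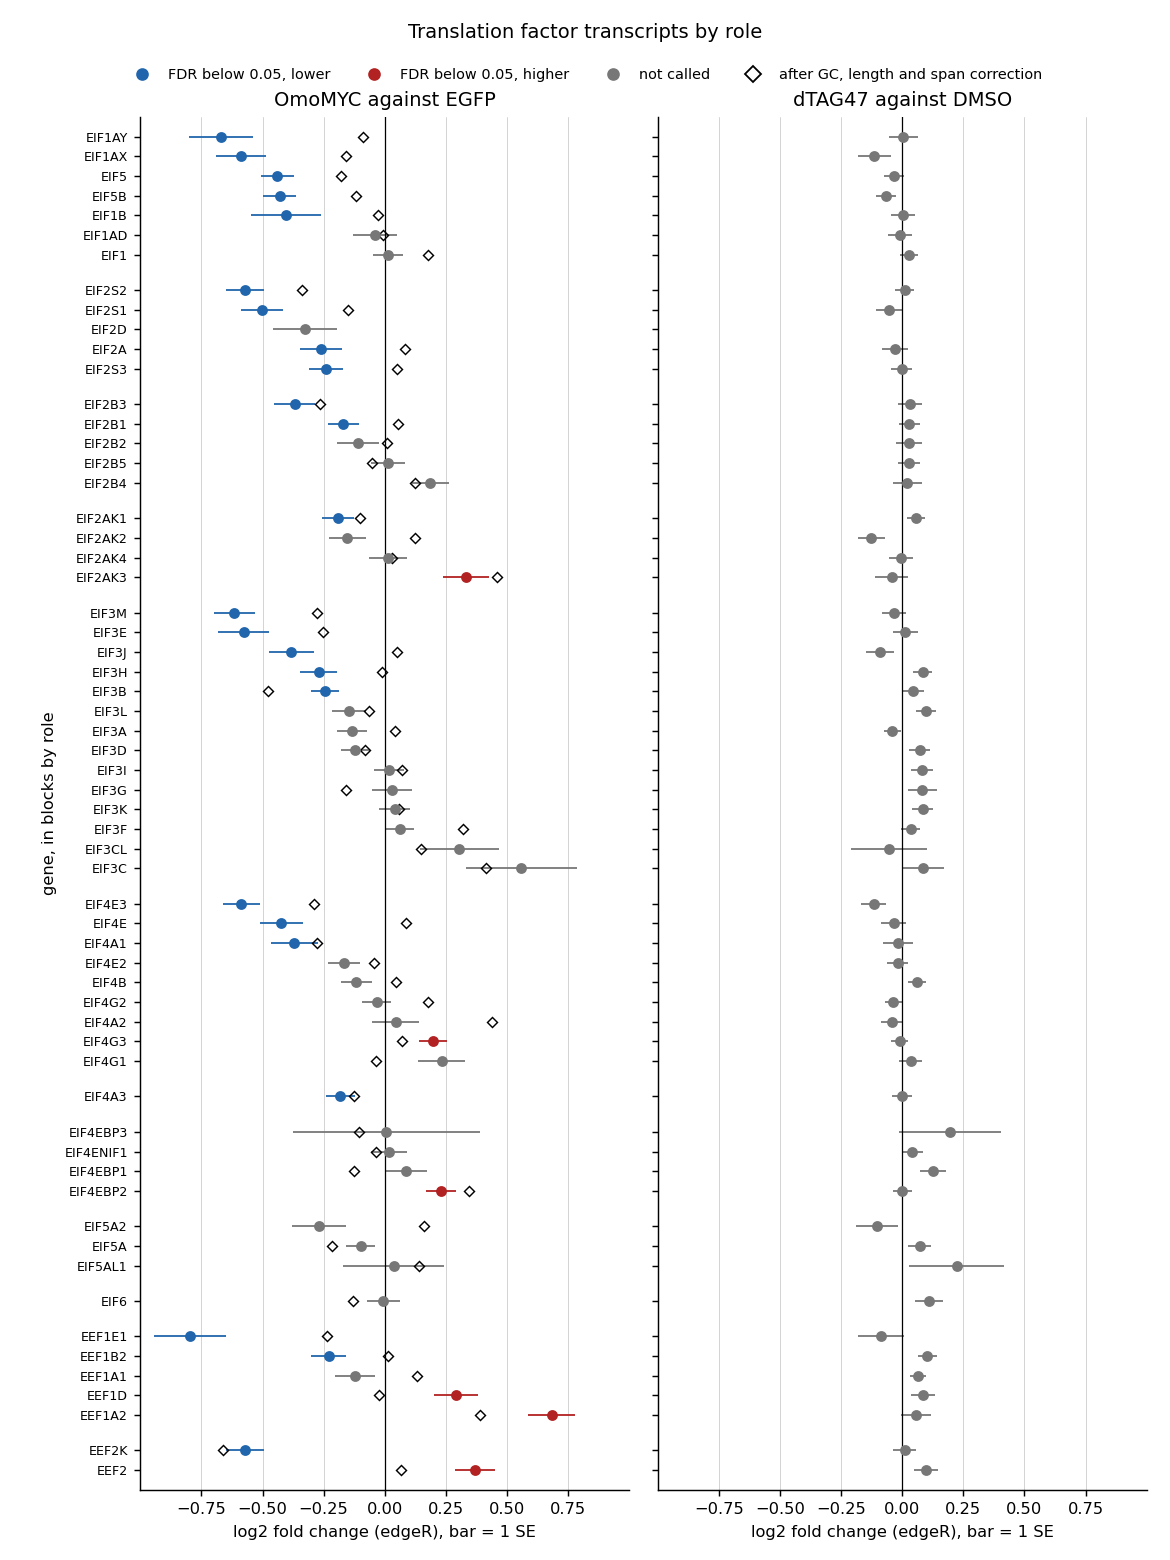
Each line is a translation factor tested in the OmoMYC experiment, in blocks by role, with its log2 fold change and 1 standard error for OmoMYC against EGFP on the left and for dTAG47 against DMSO on the right, blue for called lower, red for called higher and grey for not called. Open diamonds on the left are the values after the feature correction, which lie to the right of the points for most of the factors called lower. With dTAG47 no factor was called, and factors tested only in parental cells are not drawn.

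**Figure D3:**
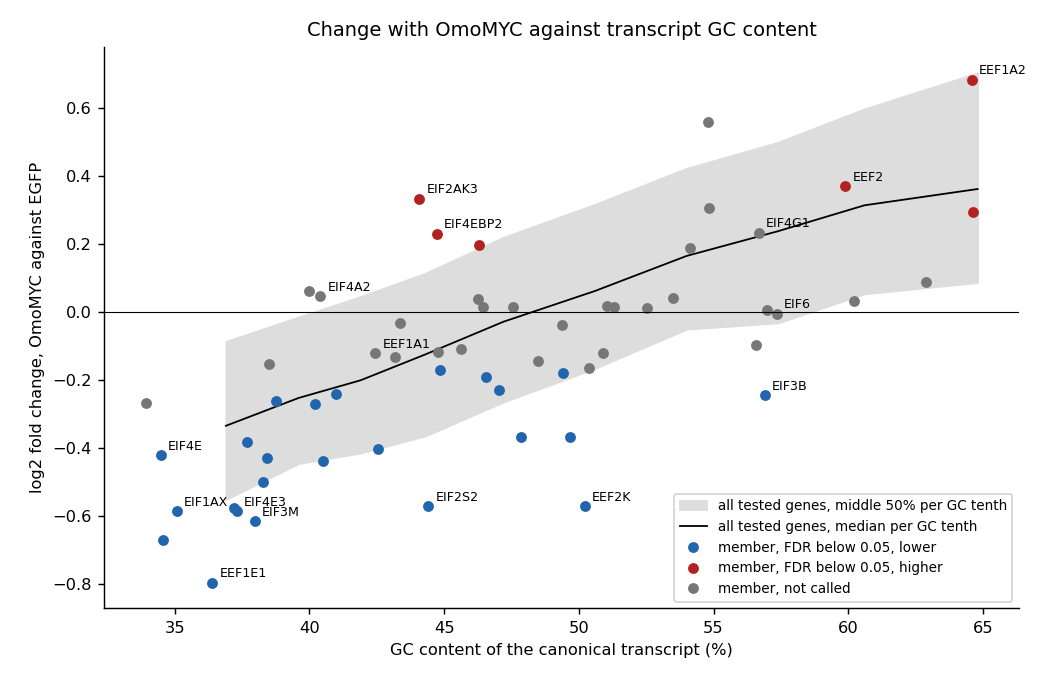
Log2 fold change with OmoMYC against the GC content of each gene's canonical transcript in percent, with the translation factors as points coloured by call, and the median and middle 50% of all tested genes per GC decile as a line and a grey band. The median of all genes runs from -0.34 in the lowest decile to 0.36 in the highest, and EEF2K, EIF2S2, EIF3B, EIF2AK3 and EIF4EBP2 are among the factors that lie outside the band.

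Among transcripts below the median GC content, 20 of 36 translation factors were called lower and 3 higher, against 41.8% and 13.4% of all genes there. Above that median, 4 of 23 were called lower and 3 higher, against 9.67% and 41.6% of all genes. The median log2 fold change of the factors was -0.23 below and 0.02 above, while that of all genes was -0.19 and 0.23. In both classes of GC content, the factors' median was thus below that of all genes, by more among GC-rich transcripts. No test was made of this difference.

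Of the 7 genes grouped as factors that select the start codon, 5 fell and none rose, against 25.7% and 27.3% of all genes. Their median log2 fold change was -0.43. EIF1AX on chrX:20142643-20159956 (hg19) encodes eIF1A, which opens the small subunit for scanning. It was at 195, 157 and 144 CPM in EGFP replicates 1 to 3 and at 110.1, 114 and 107 CPM in OmoMYC replicates 1 to 3. All 3 OmoMYC libraries lay below all EGFP libraries, and the log2 fold change was -0.59 (SE 0.10, edgeR FDR 0.000892). After the feature correction it was -0.16 and still called. EIF1AY, its near-identical copy on the Y chromosome, is given only by its log2 fold change of -0.67 and was not called after the correction, with a value of -0.09, and reads of the copies may be split between them.

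EIF5 encodes the protein that makes eIF2 hydrolyse its GTP at the start codon. Its transcript went from 453, 413 and 394 CPM to 310, 319 and 299 CPM, a log2 fold change of -0.44 (SE 0.07), and EIF5B, the GTPase of subunit joining, went from 257, 233 and 225 CPM to 178, 178 and 174 CPM, at -0.43 (SE 0.07). Neither gene's groups overlapped, and both kept the call after the correction at -0.18 and -0.12. EIF1, which guards against wrong start codons, was at 699, 663 and 640 CPM with EGFP and 672, 700 and 649 CPM with OmoMYC, so the groups overlapped and the log2 fold change was 0.01 (SE 0.06, FDR 0.86), with a corrected value of 0.18 that was called higher. Its paralog EIF1B was at 24.9, 21.5 and 18.5 CPM and then 18.8, 17.2 and 13.1 CPM. EIF1B was called lower (log2 fold change -0.40, SE 0.14, FDR 0.036) although its groups overlapped, and lost the call without EGFP replicate 2 (FDR 0.0734), without OmoMYC replicate 3 (FDR 0.103) and after the correction (-0.03). The last gene of the group, EIF1AD, is there by its name, and a part in start codon choice is not shown here. It was at -0.04 and not called.

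The subunits of eIF2 fell together. EIF2S1 on chr14:67827045-67853233 encodes eIF2 alpha, whose phosphorylation shuts down initiation under stress. In EGFP libraries it was at 217, 196 and 174 CPM and in OmoMYC libraries at 137, 146 and 131 CPM. EIF2S2, the beta subunit, was at 306, 279 and 251 CPM and then 186, 193 and 183 CPM. For both genes all OmoMYC libraries were below all EGFP libraries, within which replicate 1 was highest and replicate 3 lowest. The log2 fold changes were -0.50 (SE 0.09) for EIF2S1 and -0.57 (SE 0.08) for EIF2S2, and both kept the call after the correction at -0.15 and -0.34. EIF2S3, the gamma subunit that binds the initiator tRNA, fell by 0.24 (SE 0.07), and EIF2A, an alternative carrier of that tRNA, by 0.26 (SE 0.09) on the log2 scale. After the correction these values were 0.05 and 0.08 and were not called, and EIF2A also lost the call without OmoMYC replicate 3 (-0.25, FDR 0.0716). EIF2D, another such carrier, stands in the table of this experiment under 2 identifiers, the tested one at 9.94 CPM with EGFP and 7.95 with OmoMYC (log2 fold change -0.33, FDR 0.0543). It has no entry in the annotation, so its value stayed as it was in the corrected fit, where it was called lower.

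Of the 5 subunits of eIF2B, the exchange factor that reloads eIF2 with GTP, 2 fell and none rose. Among all genes, 25.7% fell and 27.3% rose. EIF2B3, the gamma subunit, was at 81.1, 68.3 and 67.4 CPM and then 57.2, 55.4 and 55.4 CPM. Its log2 fold change was -0.37 (SE 0.09, FDR 0.00442) and -0.26 after the correction, called in both. EIF2B1, the alpha subunit, fell by 0.17 (SE 0.06, FDR 0.0435). That call was lost without EGFP replicate 2 or without any OmoMYC library, at FDR 0.07 to 0.143, and the corrected value was 0.05. EIF2B2, EIF2B4 and EIF2B5 had log2 fold changes of -0.11, 0.19 and 0.01 and were not called, and EIF2B4 was called higher at 0.12 after the correction.

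The 4 kinases that phosphorylate eIF2 alpha did not move as a group. EIF2AK3 on chr2:88856259-88991036 encodes PERK, the sensor of unfolded proteins in the endoplasmic reticulum. It was at 17.1, 16.3 and 14.9 CPM with EGFP and rose to 20.4, 21.6 and 18.9 CPM with OmoMYC, without overlap. The log2 fold change was 0.33 (SE 0.09, FDR 0.012) and 0.46 after the correction, with the call lost without EGFP replicate 2 (FDR 0.0582) or OmoMYC replicate 2 (FDR 0.0945). EIF2AK1, the haem-regulated kinase HRI, fell by 0.19 (SE 0.06, FDR 0.0293). Its call was lost without EGFP replicate 2 or either of OmoMYC replicates 1 and 3 (FDR 0.0601, 0.125 and 0.071), and held after the correction at -0.10. EIF2AK2, the RNA-activated kinase PKR, had -0.15 and EIF2AK4, the amino acid sensor GCN2, 0.01, and neither was called. The corrected value of EIF2AK2 was 0.12 and was called higher.

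Of the 14 entries of eIF3, the large scaffold that holds the small subunit, 5 fell, none rose, and the median was -0.13. The shares of all genes that fell and rose were 25.7% and 27.3%. EIF3M on chr11:32605344-32627810 was at 179, 167 and 147 CPM and then 108, 113 and 101 CPM, a log2 fold change of -0.62 (SE 0.09). EIF3E was at 474, 404 and 350.2 CPM and then 283, 289 and 252 CPM, a log2 fold change of -0.58 (SE 0.10). Both products are subunits with a PCI domain, a fold that holds the complex together, and for both genes the OmoMYC libraries lay below the EGFP libraries. After the correction the values were -0.28 and -0.25, and both were called. EIF3B, a core subunit with a GC-rich transcript, was at 600.1, 610.2 and 639 CPM and then 518, 513 and 530.0 CPM. Its log2 fold change went from -0.24 (SE 0.06) to -0.48 with the correction, the reverse of the shift seen for EIF3M and EIF3E.

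EIF3H and EIF3J, an accessory subunit, fell by 0.27 (SE 0.08) and 0.38 (SE 0.09), but their corrected values of -0.01 and 0.05 were not called. The other 9 entries were not called in edgeR and ranged from -0.15 (EIF3L) to 0.56 (EIF3C). After the correction EIF3F was called higher at 0.32 and EIF3G lower at -0.16. EIF3C and EIF3CL are near-identical copies at 11.9 and 1.77 CPM in EGFP libraries, and reads between them may be split or lost. Per kilobase of transcript, EIF3C was at 4.09 CPM and the 12 other subunits with a gene of their own at 32.5 (EIF3M) to 265 (EIF3K). The level of EIF3C in this table is thus uncertain.

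The cap-binding complex eIF4F joins the cap-binding protein eIF4E, the helicase eIF4A and the scaffold eIF4G. EIF4E on chr4:99800427-99850284 was at 125, 109.7 and 99.1 CPM in EGFP replicates and fell to 82.5, 85.1 and 81.3 CPM with OmoMYC. The groups did not overlap, and the log2 fold change was -0.42 (SE 0.09, FDR 0.00242), or 25.4% lower. The call held without each library in turn, at FDR up to 0.0143. After the feature correction the direction changed, with a value of 0.09 at FDR 0.0933, and its transcript has one of the lowest GC contents of the list at 34.5%. EIF4E3 on chr3:71724565-71803924 encodes an atypical eIF4E that binds the cap through other residues. It was at 71.4, 66.6 and 65.1 CPM and then 44.9, 47.5 and 42.9 CPM, with a log2 fold change of -0.59 (SE 0.08) and a corrected one of -0.29, both called. EIF4E2, a cap-binding protein that represses translation, was at 85.0, 85.7 and 84.0 CPM and then 76.8, 75.5 and 74.8 CPM. Its OmoMYC libraries were all lower, but its FDR was 0.0511, and the corrected value was -0.04.

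EIF4A1 fell (log2 fold change -0.37, SE 0.09, FDR 0.00776) from 12.8, 11.9 and 11.4 CPM to 9.35, 9.47 and 9.08 CPM, and was still called at -0.28 after the correction. This level is far below that of its paralog EIF4A2, at 561, 467 and 424 CPM and then 511, 519 and 469 CPM, and EIF4A1 overlaps a readthrough gene, SENP3-EIF4A1, on the same strand, so that its count is uncertain. EIF4A2 had a log2 fold change of 0.05 (SE 0.10) and was not called, while its corrected value of 0.44 was called higher. The cofactor of the helicase, EIF4B, was at -0.12 and not called.

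Of the 3 scaffold genes, EIF4G3 rose, and EIF4G1 and EIF4G2 were not called. EIF4G1 was at 1039, 1218 and 1408 CPM in EGFP replicates 1 to 3 and at 1420, 1385 and 1504 CPM with OmoMYC. EGFP replicate 3 reached into the range of the OmoMYC libraries, and the log2 fold change of 0.23 (SE 0.10) was not called (FDR 0.0628), with a corrected value of -0.04. EIF4G2, a scaffold that lacks the eIF4E-binding site and serves cap-independent initiation, was at 1258, 1188 and 1176 CPM and then 1204, 1192 and 1146 CPM, with overlap and a value of -0.03. It was called higher at 0.18 after the correction. EIF4G3, a paralog of EIF4G1, rose from 388, 378 and 378 CPM to 434, 433 and 444 CPM (log2 fold change 0.20, SE 0.06, FDR 0.0137). That rise lost its call without EGFP replicate 2 or any OmoMYC library, at FDR 0.0554 to 0.105, and was 0.07 after the correction. EIF4A3, the helicase of the exon junction complex, fell by 0.18 (SE 0.06) and by 0.13 after the correction, with the call lost without EGFP replicate 2 or either of OmoMYC replicates 1 and 3 (FDR 0.0639, 0.073 and 0.0593).

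Proteins that bind eIF4E and keep it from eIF4G showed 1 rise among 4, against 27.3% of all genes. EIF4EBP2 on chr10:72163901-72188374 was at 232, 229 and 227 CPM with EGFP and rose to 265, 279.6 and 262 CPM with OmoMYC, without overlap. Its log2 fold change was 0.23 (SE 0.06, FDR 0.00869) and 0.35 after the correction. Without EGFP replicate 2 the FDR was 0.063, and without OmoMYC replicate 2 it was 0.104. EIF4EBP1 was at 126, 153 and 149 CPM and then 153, 142 and 160.3 CPM, so that the groups overlapped at a log2 fold change of 0.09 (SE 0.09). Its corrected value of -0.13 was called lower. EIF4ENIF1, which carries eIF4E into the nucleus, had a value of 0.02, and EIF4EBP3, at under 1 CPM, had 0.01 (SE 0.38).

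EIF5A, which carries the amino acid hypusine and helps ribosomes past proline-rich stretches, was at 523, 537 and 537 CPM and then 496, 482 and 514 CPM. The OmoMYC libraries were all lower, but the log2 fold change of -0.10 (SE 0.06) was not called at FDR 0.176. After the correction it was -0.22 and was called. Its paralog EIF5A2 was at 15.5, 14.4 and 12.3 CPM and then 12.5, 11.8 and 10.8 CPM, with overlap, a value of -0.27 (SE 0.11, FDR 0.0629) and a corrected value of 0.16 that was not called. EIF5AL1, a near-identical copy of EIF5A, was at 1.61 CPM with EGFP and 1.63 with OmoMYC, and its count is uncertain. EIF6, which keeps the large ribosomal subunit from joining too early, was at 83.6, 88.7 and 91.7 CPM and then 86.8, 88.2 and 87.9 CPM. The OmoMYC libraries fell inside the range of EGFP, and the value was -0.01 (SE 0.07), though the corrected one of -0.13 was called lower.

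Among the elongation factors that deliver tRNA, EEF1A2 rose and EEF1A1 was not called. EEF1A2 on chr20:62119366-62130592 encodes the form of eEF1A that is typical of neurons and muscle. It was at 563, 690.0 and 745 CPM in EGFP replicates 1 to 3 and at 1041, 1033 and 1134 CPM in OmoMYC replicates 1 to 3. Every OmoMYC library was above every EGFP library, and the log2 fold change was 0.68 (SE 0.10, FDR 0.000221), or 60.6% higher. The corrected value was 0.39 and still called. EEF1A1, the general form, was at 6541, 5617 and 5182 CPM and then 5457, 5417 and 5071 CPM. These groups overlapped at -0.12 (SE 0.08, FDR 0.238), the corrected value of 0.13 was called higher, and its count may include or lose reads of its many pseudogenes.

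The partners of eEF1A that exchange its nucleotide went in different directions. EEF1B2 fell by 0.23 (SE 0.07, FDR 0.0204), lost the call without EGFP replicate 2 or either of OmoMYC replicates 1 and 3 (FDR 0.0592, 0.0534 and 0.0577) and was at 0.01 after the correction. EEF1D was at 211, 238 and 264 CPM and rose to 284, 274 and 315 CPM, a log2 fold change of 0.29 (SE 0.09, FDR 0.0177). Its call was lost without EGFP replicate 2 (FDR 0.0715), without OmoMYC replicate 3 (FDR 0.134) and after the correction, where the value was -0.02. EEF1G, the third partner, had at most 1 count in any library of this table and was not tested. It overlaps another annotated gene, and how reads shared by genes were counted is not given in the sources used here, so this count is uncertain and is no measure of the level of the transcript. EEF1E1 on chr6:8073593-8102792, an eEF1-related subunit of the tRNA synthetase complex, had the largest fall of the list. It was at 19.9, 15.4 and 13.3 CPM and then 9.58, 10.0 and 8.35 CPM, a log2 fold change of -0.80 (SE 0.15, FDR 0.00123). The corrected value of -0.23 was called as well.

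EEF2 and the kinase that inhibits its product moved in opposite directions. EEF2 on chr19:3976054-3985461 was at 3541, 4149 and 4473 CPM with EGFP and 5288, 5025 and 5414 CPM with OmoMYC. EEF2K on chr16:22217599-22300059, whose product phosphorylates eEF2 and slows elongation, was at 51.8, 54.2 and 56.5 CPM and then 36.6, 34.5 and 38.2 CPM. Neither gene's groups overlapped. EEF2 rose by a log2 fold change of 0.37 (SE 0.08, FDR 0.0036), held without each library, and was at 0.07 and not called after the correction. EEF2K fell by 0.57 (SE 0.08, FDR 0.000171), and its corrected value was larger, at -0.66.

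**Figure D4:**
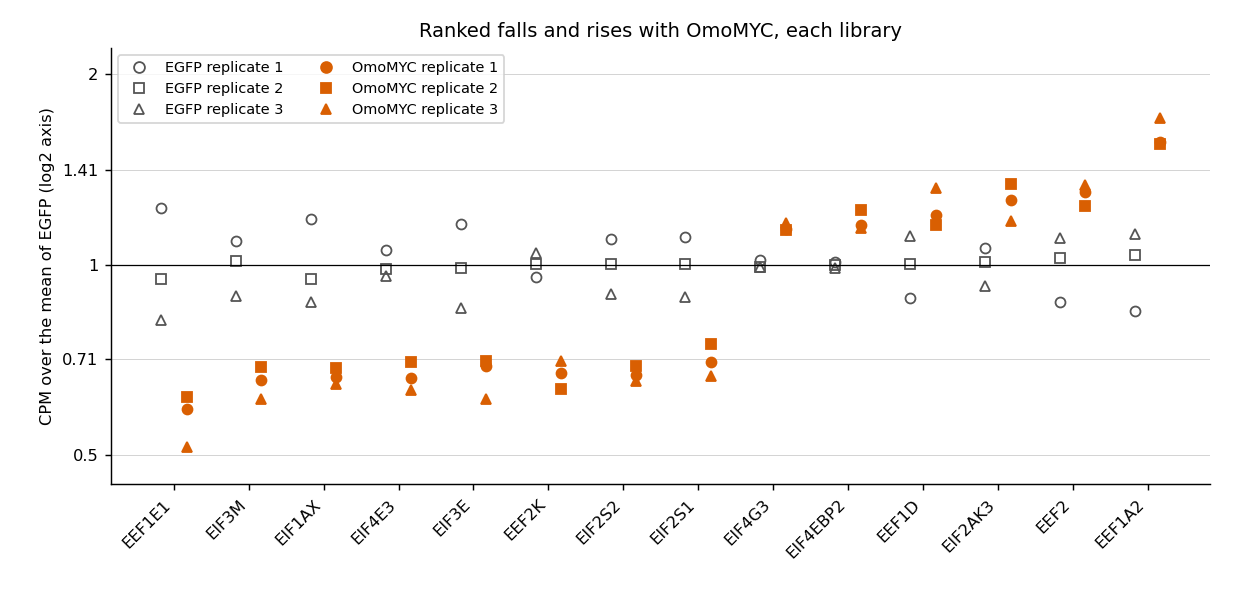
Level in each library, as CPM over the mean of the EGFP libraries on a log2 axis, of the 8 largest called falls outside the Y chromosome and the 6 called rises with OmoMYC, with open grey symbols for EGFP, filled orange symbols for OmoMYC and the shape giving the replicate. The groups of each gene are apart because only genes without overlap were ranked, and EGFP replicate 1 is the highest of its group for 7 of the 8 falls.

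Levels between genes can be compared only per length, here as mean CPM per kilobase of the canonical transcript in EGFP libraries. EEF1A1 (1646) and EEF2 (1284) stood highest, followed by EEF1B2 (515), EIF5A (421), EEF1A2 (376) and EIF4G2 (318). With OmoMYC, EEF2 was at 1660.0 and EEF1A1 at 1513, values without the feature correction, under which EEF2 moved by 0.07 and EEF1A1 by 0.13 on the log2 scale. The order of the pair was not tested, and the count of EEF1A1 is uncertain. EIF4E stood at 45.8, EIF4E2 at 87.8 and EIF4E3 at 6.78, while EIF4G1 stood at 226.

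Paralogs were compared within each library, as the log2 ratio of their CPM. EEF1A2 over EEF1A1 was -3.54, -3.03 and -2.80 in EGFP replicates and -2.39, -2.39 and -2.16 in OmoMYC replicates, a difference of 0.81. EIF4A2 over EIF4A1 differed by 0.42, EIF4E2 over EIF4E by 0.25, EIF4E3 over EIF4E by -0.17 and EIF1B over EIF1 by -0.42. In these 5 of 9 pairs the groups did not overlap, at an exact two-sided permutation p of 0.1 each, the smallest that 3 against 3 libraries allow, and 0.18 adjusted over 9 pairs. The ratios EIF4G3 over EIF4G1, EIF4G2 over EIF4G1, EIF5A2 over EIF5A and EIF4EBP2 over EIF4EBP1 overlapped between the groups. The partners also differ in GC content, which the ratios do not remove.

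**Figure D5:**
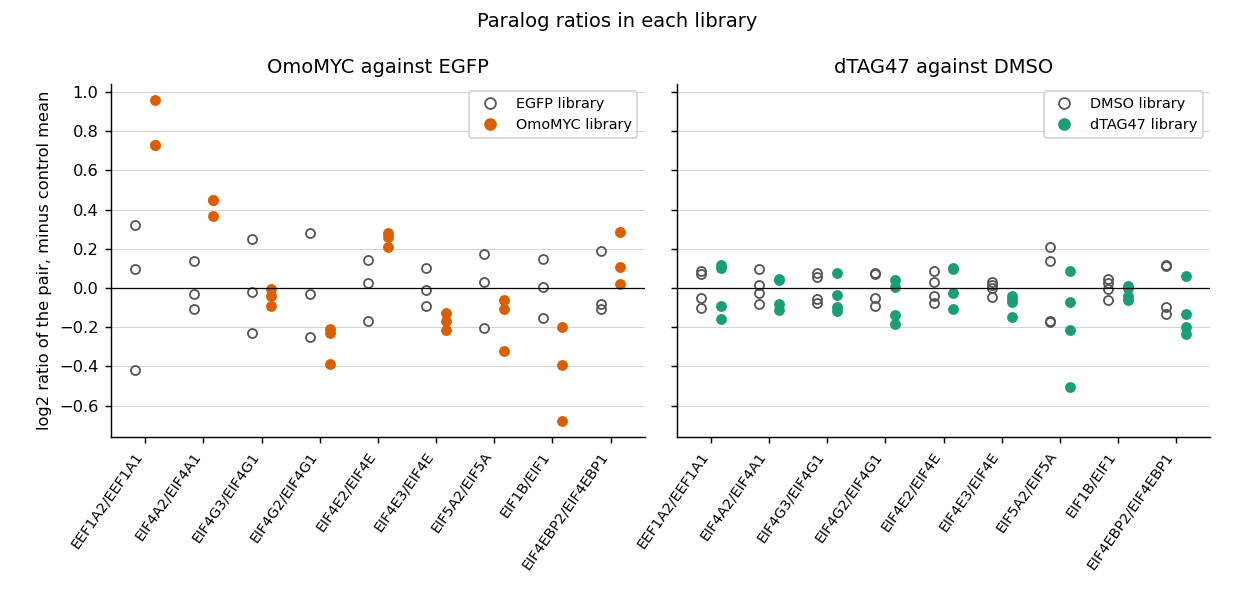
Log2 ratio of CPM of 9 paralog pairs in each library, minus the mean ratio of the control libraries, for OmoMYC (orange) against EGFP (open) on the left and dTAG47 (green) against DMSO (open) on the right. The pair EEF1A2 over EEF1A1 is highest on the left, with a difference of 0.81, and in the dTAG47 experiment the groups of every pair overlap.

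Genes that act beside these factors were read in the same fit, from a list of 57 entries of which 56 were tested. With OmoMYC 20 fell and 10 rose, against 25.7% and 27.3% of all genes, and the median log2 fold change was -0.12. After the feature correction 15 were lower and 14 higher, against 27.1% and 32% of all genes. Of the genes for termination and recycling of ribosomes, 6 of 7 fell and none rose, with a median of -0.31. With the correction 4 were lower and 1, DENR, was higher at 0.12, and the median was -0.09. ABCE1, which splits ribosomes after termination, went from 242.6 ± 31.0 CPM (SD, n = 3) to 150 ± 9.57, a log2 fold change of -0.69 (SE 0.09, edgeR FDR 0.000185) and a corrected one of -0.27, both called. ETF1 and GSPT1, the release factors, fell by 0.34 (SE 0.08) and 0.31 (SE 0.07), with corrected values of -0.09 and -0.08 that were called. The 8 genes of hypusine and diphthamide synthesis gave 2 falls and 2 rises, with a median of 0.10. DPH6, an enzyme of the diphthamide modification of eEF2, fell from 16.6 ± 3.30 to 10.4 ± 1.06 CPM, at -0.68 (SE 0.14, edgeR FDR 0.00272) and -0.37 after the correction. DPH1 and DPH2, which act in the first step of the same modification, rose by 0.36 (SE 0.09) and 0.34 (SE 0.07) and were called higher at 0.13 and 0.12 after the correction. Without OmoMYC replicate 3, DPH1 lost its call (0.27, FDR 0.0576). DPH5, the second gene of this group that fell, was at -0.52 (SE 0.17, edgeR FDR 0.0262) although its libraries overlapped. Its corrected value of -0.13 was not called. With the correction, 2 of the 8 genes were lower and 3 higher.

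The stress response that acts on eIF2 gave 3 falls and 2 rises among 7 genes, against 25.7% and 27.3% of all genes. PPP1R15A, the inducible subunit of the phosphatase that restores eIF2 alpha, rose from 10.6 ± 1.45 CPM (SD, n = 3) to 23.2 ± 0.982, a log2 fold change of 1.13 (SE 0.11, edgeR FDR 2.02e-05). TRIB3, an inhibitor induced by the same response, rose from 5.30 ± 0.618 to 11.5 ± 0.775 CPM at 1.12 (SE 0.12, FDR 3.93e-05). The corrected values of 0.88 and 0.83 were called. PPP1R15B, the constitutive subunit of that phosphatase, fell by 0.39 (SE 0.06), and ATF4, the main transcription factor of the response, by 0.21 (SE 0.07). Both were called after the correction at -0.21 and -0.23, and ATF4 lost its call without EGFP replicate 2 or either of OmoMYC replicates 1 and 2 (FDR 0.06, 0.0618 and 0.0529). DDIT3, another transcription factor of the response, was at 0.17 and not called, and at 0.28 and called higher with the correction. IMPACT, the third gene that fell, was at -0.49 (SE 0.12, edgeR FDR 0.00547), and at -0.10 and not called with the correction. GCN1L1 was at -0.06 and not called, and at -0.37 and called lower with the correction.

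In the mTORC1 pathway, which controls the eIF4E-binding proteins, 3 of 10 genes fell and 3 rose, against 25.7% and 27.3% of all genes. The falls were RHEB (-0.37, corrected -0.23), PDCD4 (-0.41, corrected -0.04) and RPS6KB1 (-0.24, corrected 0.11), and with the correction RHEB was called lower, PDCD4 was not called and RPS6KB1 was called higher. The rises were TSC1 (0.44, corrected 0.42), TSC2 (0.53, corrected 0.15) and RPS6KB2 (0.31, corrected 0.04), of which RPS6KB2 was not called with the correction. RPS6KB2 also lost its call without EGFP replicate 2 or any OmoMYC library (FDR 0.0538 to 0.0733), and RPS6KB1 without OmoMYC replicate 1 or 3 (FDR 0.0608 and 0.0819). RPTOR and MTOR, at 0.18 and 0.11 and not called, were called lower with the correction at -0.42 and -0.12. With the correction, 3 of the 10 genes were thus lower and 3 higher, against 27.1% and 32% of all genes. MKNK1 and MKNK2, the kinases of eIF4E, rose by 0.58 (SE 0.08) and 0.35 (SE 0.09). Their corrected values were 0.52, called, and -0.01, not called, and MKNK2 lost its call without OmoMYC replicate 3 (FDR 0.0751). They stood in a list of 6 kinases and regulators of cap-dependent translation. There 3 genes fell and 2 rose, against 25.7% and 27.3% of all genes. The falls were NCBP2 (-0.38, corrected -0.02), NCBP1 (-0.33, corrected -0.05) and CYFIP1 (-0.19, corrected -0.19). Of these, only CYFIP1 was called lower with the correction.

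With dTAG47 in parental cells, none of the 62 translation factors tested was called lower or higher at an FDR below 0.05 in edgeR, where the smallest FDR was 0.673, nor in DESeq2. Of all 14470 genes tested, 0.159% were called. At an unadjusted p below 0.05 there were 2 factors lower and 4 higher, against 3.4% and 3.88% of all genes. The median log2 fold change was 0.02, and the range of -0.13 to 0.22 was less than that with OmoMYC. The groups did not overlap for 2 factors, both higher, against 1.87% of all genes. These were EEF1A1 and EIF3H. EEF1A1 was at 4437 to 4611 CPM with DMSO and 4642 to 4893 with dTAG47, a log2 fold change of 0.06 (SE 0.03).

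The factors with the smallest p were EEF1B2, EIF3L and EIF2AK2. EEF1B2 was at 345, 338, 341 and 351 CPM in DMSO replicates 1 to 4 and 383, 349.8, 367 and 376 CPM in dTAG47 replicates 1 to 4. The lowest dTAG47 library, replicate 2, lay inside the range of DMSO, and the log2 fold change was 0.10 (SE 0.04, FDR 0.673). EIF3L, a subunit of eIF3, was at 334, 352, 357 and 349.6 CPM and then 381, 352, 369 and 387 CPM, a value of 0.10 (SE 0.04). EIF2AK2 was at 58.7, 61.7, 55.8 and 56.1 CPM and then 53.02, 58.1, 50.9 and 50.6 CPM. Its groups overlapped through replicate 2 as well, and its value was -0.13 (SE 0.05).

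The factors at the head of the changes with OmoMYC had small values here. EIF4E was at 106, 105, 102 and 97.4 CPM and then 108, 103.5, 93.7 and 95.9 CPM, a log2 fold change of -0.04 (SE 0.05). EEF1A2 was at 0.06 (SE 0.06), EEF2K at 0.01 (SE 0.05), EIF2S1 at -0.06 (SE 0.05) and EEF1E1 at -0.09 (SE 0.09). EEF2, from 2222 to 2457 CPM with DMSO to 2267 to 2683 with dTAG47, was at 0.10 (SE 0.05). Whether these effects differ from those with OmoMYC was not tested, since the tables were made separately. EIF4H, a cofactor of eIF4A found only in the parental table, was at 0.06 (SE 0.04).

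Among the DMSO libraries, replicates 1 and 2 stood apart from replicates 3 and 4, with 2.67 and 3.21 as the chi-square of counts over its degrees of freedom within these pairs and 8.97 to 11.6 between them. The dTAG47 libraries did not split in the same way. There the value was 2.7 for replicates 3 and 4 but 8.43 for replicates 1 and 2, replicate 1 was closer to replicate 3 (5.84), and replicate 2 was the farthest from the others, at up to 23.4. The GC difference used above was -0.13 and -0.12 in DMSO replicates 1 and 2, 0.13 and 0.12 in DMSO replicates 3 and 4, and 0.04, -0.09, 0.22 and 0.30 in dTAG47 replicates 1 to 4. With a factor for replicates 1 and 2 against 3 and 4, 4 translation factors were called lower (EIF1AX, EIF2AK2, EIF3J and EIF4E3) and 3 higher (EEF1B2, EEF2 and EIF4EBP1), against 2.9% and 2.58% of all genes. Their log2 fold changes were between -0.13 and 0.13. Within replicates 3 and 4 alone, 2 were lower and 4 higher, against 3.24% and 2.93% of all genes, and within replicates 1 and 2 alone none was called, against 0.0483% of all genes. With the feature correction none was called. All 9 paralog ratios overlapped between DMSO and dTAG47, the smallest exact two-sided permutation p was 0.0571 for EIF4E3 over EIF4E (adjusted 0.514 over 9 pairs), and 4 against 4 libraries allow 0.0286. Of 57 other translation genes tested, none was called in edgeR, with 2 lower and 2 higher at an unadjusted p below 0.05.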

How the data were processed

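RNA-seq libraries were made from ribosomal RNA-depleted RNA and sequenced on an Illumina instrument. The authors used Cutadapt for trimming, STAR for alignment to hg19 and featureCounts for counting per gene, and their own tests used DESeq2; versions, annotation and strand setting are not given in the sources used here. The deposited values are whole-number counts, and all 14 columns were used. From these, each experiment was fitted alone in edgeR 4.0.16 (R 4.3.3; filterByExpr, TMM, robust quasi-likelihood test, Benjamini-Hochberg FDR of 0.05 over all genes tested). DESeq2 1.42.0, limma-voom (limma 3.58.1), other scaling and filters, a replicate block, the feature correction and leaving out each library were alternatives. Coordinates come from GENCODE lifted to GRCh37, and GC content and length from its canonical transcripts. Members, lists and the naming rule were chosen with earlier results of these data known. The text names 9 central factors, 9 paralog pairs, the 3 smallest p with dTAG47, and the leading genes of the related list. It also names the 8 largest called falls outside the Y chromosome and the 6 called rises with OmoMYC. Groups that did not overlap were a condition of that ranking. Other factors and related genes were named to complete each role after their values were seen. The list of related genes holds 8 groups. CPM of the Y-linked gene are not given. Replicates are biological replicates by the study's account. Same-numbered libraries correlated at 0.08, -0.07 and 0.29 in the OmoMYC experiment and at 0.01, 0.11, 0.10 and 0.16 in parental cells, so numbers were not taken as pairs.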

Additional observations from a re-analysis of the deposited data

Results flagged for a closer look

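In DMSO libraries, EIF4G3, a scaffold of eIF4F, was at 321.8 CPM in replicate 3 and at 336.6 to 337.2 CPM in the other 3 libraries. The gap was 0.961 of the group's range, which is past the critical value of Dixon's test for 4 samples. It was 1 of 44 groups of 4 libraries looked at, and chance gives about 1 in 20, so fewer were found than chance gives.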

How the results depend on the processing

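Of single genes named for OmoMYC, 1142 values over all alternatives kept their call or lack of one, and 47 gained and 56 lost a call. Another 15 changed direction with a call in at least 1 of the fits compared, all of them under the feature correction. Changes of sign without a call in either fit, such as those of EIF4G1 and EIF5A2 with that correction, were counted among the 1142. These reversed values were 0.131 for EEF1A1, 0.0139 for EEF1B2, -0.0238 for EEF1D, 0.0815 for EIF2A, 0.123 for EIF2AK2, 0.0535 for EIF2B1, 0.0494 for EIF2S3, -0.16 for EIF3G, 0.0488 for EIF3J, 0.087 for EIF4E, -0.126 for EIF4EBP1, 0.177 for EIF4G2, 0.121 for DENR, -0.0121 for MKNK2 and 0.114 for RPS6KB1, and the cause was not tested. The correction also raised the count of higher factors from 6 to 10, gave 15 lower and 14 higher related genes, and moved the members' median to -0.0164. With a library left out, 2 to 9 factors were higher, the median was -0.205 to -0.146, and 6 to 16 related genes were higher. In the same fits 19.4% to 29% of all genes were called higher. Same-numbered libraries are not paired by the labels or the data. With OmoMYC, the replicate block gave 26 lower and 9 higher factors and 24 lower and 16 higher related genes. Of all genes, it called 28% lower and 30.7% higher. With dTAG47, the block called 3 factors lower and 2 higher and 1 related gene in each direction, against 4.62% of all genes. The factor for replicates 1 and 2 against 3 and 4 gave 4 and 3 factors and 1 and 3 related genes, and replicates 3 and 4 alone, added after seeing the data, gave 2 and 4 factors and 1 lower related gene. The median with dTAG47 was -0.00379 without dTAG47 replicate 1 and up to 0.047 without another library. With dTAG47, 1698 values of single genes stayed without a call and 21 gained a call. Changes of sign without a call were not counted apart, and EIF4E went from -0.0356 to 0.0743 with the feature correction. EEF1G, EIF4E1B and EIF2S3L had too few counts to test in at least 1 table, and the cause was not tested.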
